A study of Danio rerio with 10 samples.

Results

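Oxidative phosphorylation is carried out in the inner mitochondrial membrane by 5 protein complexes, most of whose subunits are encoded in the nucleus. Complex I takes electrons from NADH, complex II takes them from succinate, complex III passes them to cytochrome c and complex IV hands them to oxygen, while ATP synthase uses the resulting proton gradient to make ATP. An early fish embryo inherits its mitochondria from the egg, together with maternal mRNAs for these subunits, and makes its own copies once its genome has been activated. The nuclear genes of this system were chosen by name: every gene of the count table whose name starts with nduf, uqcr, cox followed by a digit from 4 to 8, atp5, or sdh followed by a, b, c or d, in upper or lower case. The rule took 100 of the 20920 genes. They comprised 37 complex I subunits, 7 complex I assembly factors, 5 complex II subunits, 4 complex II assembly factors, 8 complex III subunits, 20 complex IV subunits (ndufa4 and ndufa4l are counted here) and 19 ATP synthase subunits and inhibitors. Genes encoded in the mitochondrial genome were not analysed here.

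Single cells of wild-type AB/TL zebrafish embryos were profiled by Drop-seq after metabolic labeling. In every group, embryos were injected at the one-cell stage with 20 mM 4sUTP, a uridine analog that enters only RNA made after injection, along with unlabeled GFP and mCherry mRNA and labeled RFP mRNA. RNA caught on beads was treated with 10 mM iodoacetamide (IAA), which turns the analog into a T-to-C change in the reads, so that each mRNA can be split into a labeled, zygotic and an unlabeled, maternal share. Of the 5 converted libraries, 1 came from dome (labeled replicate B) and a pair, A and B, from each of the later stages, 30% and 50% epiboly, and each library pooled many embryos. The labels do not say whether replicate letters stand for separate clutches, so p-values measure only the spread between these libraries. The methods describe manual removal of the yolk for 1 epiboly replicate and dissociation by shaking for the other and for dome. Libraries that were not converted were not analysed here.

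The libraries held 1855 (dome), 2420 and 632 (30% epiboly A and B) and 3068 and 251 cells (50% epiboly A and B), 8226 in all. Their totals were 7430347, 6979193, 2922142, 8780804 and 557065 UMIs (unique molecular identifiers, 1 for each captured mRNA molecule), so 50% epiboly replicate B was by far the shallowest, and 1 cell barcode occurred in 2 or more libraries. From pairs of a gene and a cell with 3 or more UMIs, chosen zygotic genes were 92.7 to 97.3% labeled and chosen maternal genes 0.398 to 0.762%. Injected unlabeled reporter mRNAs read 0.570 to 0.922%, which is the background of the labeled share. From pairs with 1 or more UMIs, the same zygotic genes read 83.8% at dome and 89.0 to 94.4% later. Splits from those pairs can thus count some zygotic mRNA as unlabeled, most at dome. All markers of the enveloping layer (6 of 6) were higher in the cells annotated as EVL than in the other cells of each of the 4 libraries tested. For Neural Ectoderm cells, 3 or 4 of 4 markers were higher in each library, and for YSL contam cells only 4 to 6 of 7.

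As a group, the 100 genes took a larger share of the embryo's mRNA with each stage. Their labeled part was larger at each stage without overlap, as was that of all genes, while their unlabeled part was not ordered by stage. Their summed level was 8351 CPM (UMI counts scaled to a common library total) at dome, 9532 and 8883 CPM at 30% epiboly, and 11103 and 12074 CPM at 50% epiboly. Both libraries of each stage therefore lay above those of the stage before. Split by the labeled fraction of every gene and cell, the unlabeled part was 7299 CPM at dome, 6771 and 6023 CPM at 30% epiboly, and 6542 and 7270 CPM at 50% epiboly, with the dome value just above the highest later one. In replicate B the unlabeled part was higher at 50% than at 30% epiboly, and in replicate A it was lower. The labeled part was 1052 CPM at dome, 2761 and 2860 CPM at 30% epiboly, and 4562 and 4804 CPM at 50% epiboly. These ranges did not overlap between stages. The labeled share of all genes, from the same pairs, was ordered in the same way. It was 12.3% at dome, 31.5 and 29.7% at 30% epiboly, and 42.6 and 32.4% at 50% epiboly. Complex IV grew from 2126 CPM at dome to 4116 and 3768 CPM at 50% epiboly, whereas complex II went from 299 CPM to 161 and 199 CPM.

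**Figure D1:**
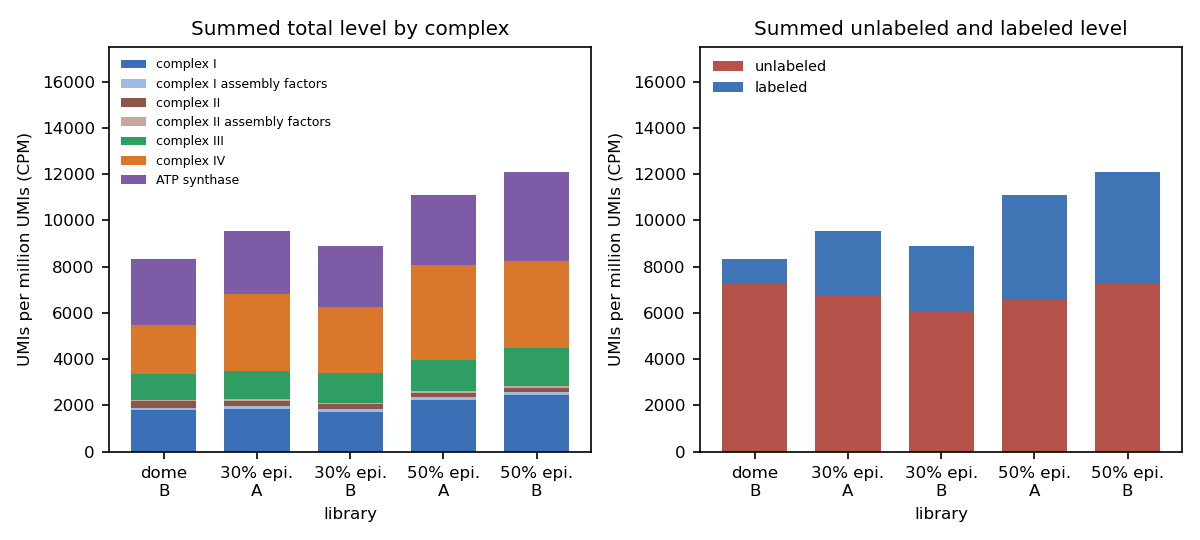
Left, summed total level of the 100 genes in each library, in CPM, stacked by complex. Right, the same sum split into unlabeled (red) and labeled (blue) CPM, from all gene and cell pairs with 1 or more UMIs. The bars reach 8351 CPM at dome and 11103 and 12074 CPM at 50% epiboly, while the red parts stay between 6023 and 7299 CPM.

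Total expression was compared between stages with edgeR's quasi-likelihood test on UMI counts summed per library, with Benjamini-Hochberg adjustment over the 12150 genes that passed the filter on low counts and a threshold of 5% FDR. Of the 100 genes, 92 passed that filter. From dome to 50% epiboly, 23 of them rose and 0 fell, that is 25.0% higher, where 5.69% of all genes tested were called higher and 2.26% lower. At an unadjusted p under 0.05, 49 of the 92 differed (53.3%), where 27.1% of all genes did. DESeq2 called 28 higher, which included all 23, where it called 614 of 7674 genes higher. The median log2 fold change of the 92 genes was 1.15, beside -0.09 for all genes tested, and 78 of the 92 had positive values. Without TMM scaling the median of all genes moved to -0.56 and that of the 92 genes to 0.69. Of the 92, 18 were then higher and 3 lower (ndufv1, ndufa9a and sdhdb), where 605 of all 12150 genes were higher and 1531 lower. Leaving out 50% epiboly replicate B, so that 1 library stood for each stage compared, gave a median of 1.23 for the 92 genes beside -0.05 for all genes. Dome is a single library in this comparison, so its spread is taken from the other stages.

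By complex, the genes that rose were 9 of 36 tested for complex I, 7 of 14 for complex IV, 6 of 19 for ATP synthase and 1 of 3 for the complex II assembly factors. Of the 8 complex III genes, 5 complex II genes and 7 complex I assembly factors, 0 passed the edgeR test, and DESeq2 called 0 of them. At an unadjusted p under 0.05 there were 3, 2 and 2, where 27.1% of all genes were. The 5 further genes that DESeq2 called were atp5if1a, atp5f1d, ndufab1b, ndufb9 and cox4i1. Median log2 fold changes were 1.65 for complex IV, 1.32 for ATP synthase, 1.15 for complex I, 0.79 for complex III and -0.03 for complex II. Succinate dehydrogenase, which also works in the citric acid cycle, was thus the complex whose median lay closest to that of all genes.

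**Figure D2:**
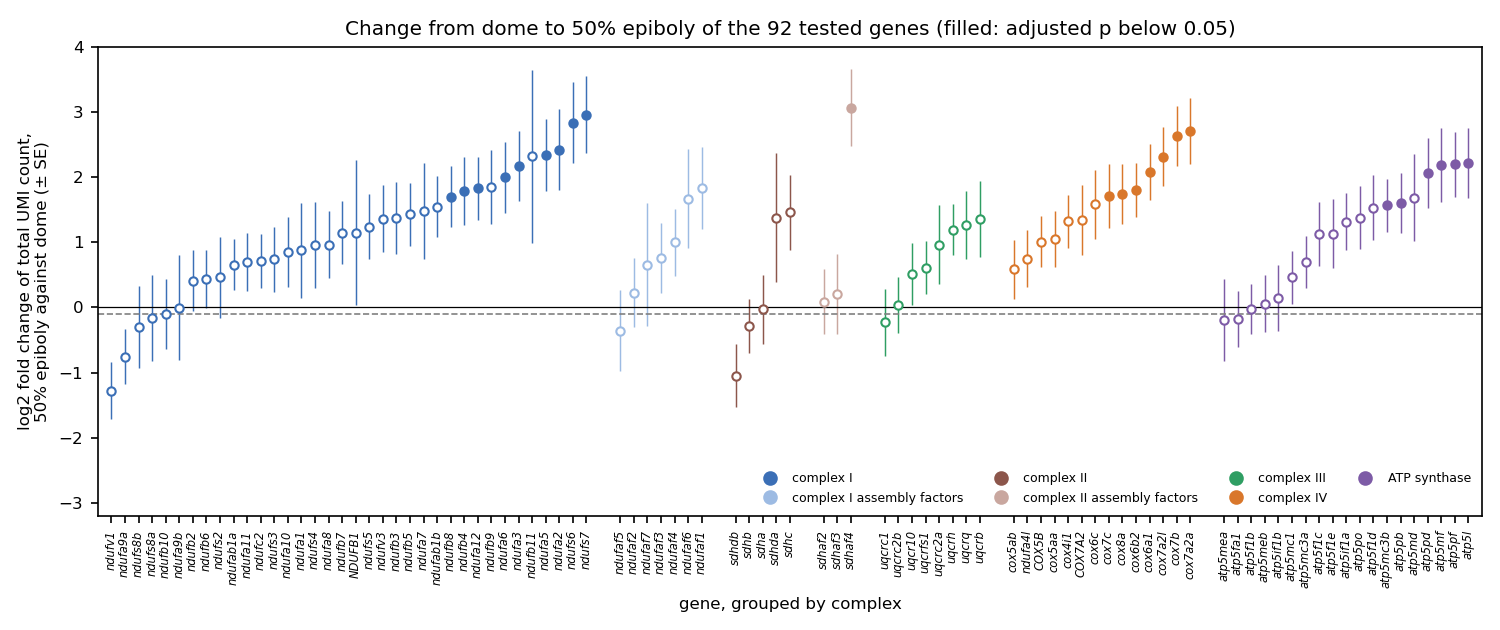
Log2 fold change of the total UMI count from dome to 50% epiboly for each of the 92 tested genes, grouped by complex, with its standard error from edgeR. Filled points passed 5% FDR, and the dashed line marks the median of all genes tested, -0.09. Every filled point lies above 0, and complex II subunits scatter around 0.

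Complex IV held many of the strongest changes. The gene cox7b encodes a small subunit of the enzyme's membrane part. It stood at 54.2 CPM at dome, at 118 and 156 CPM at 30% epiboly and at 238 and 260 CPM at 50% epiboly, and the stages did not overlap. Its log2 fold change from dome to 50% epiboly was 2.63 ± 0.46 (SE, adjusted p = 0.00658, edgeR). The gene cox7a2a, which encodes a liver-type form of subunit VIIa in mammals, read 19.0 CPM at dome, 39.7 and 41.4 CPM at 30% epiboly, and 88.7 and 95.1 CPM at 50% epiboly (log2 fold change 2.71 ± 0.51, adjusted p = 0.00797). Its relative cox7a2l, known as a supercomplex assembly factor that joins complexes III and IV, read 59.2 CPM at dome. It was at 193 and 134 CPM at 30% epiboly and at 221 and 214 CPM at 50% epiboly, so that most of its difference from dome was already there at 30% epiboly (log2 fold change to 50% epiboly 2.32 ± 0.46). The subunit genes cox6a1 and cox6b2 stood at 93.3 and 232 CPM at dome, at 250 and 588 CPM in replicate A of 50% epiboly and at 339 and 607 CPM in replicate B (log2 fold changes 2.08 ± 0.44 and 1.80 ± 0.41).

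Among the remaining genes of lowest adjusted p were the assembly factor gene sdhaf4 and several complex I genes. The product of sdhaf4 helps build complex II. Its mRNA was at 7.94 CPM at dome, at 41.7 and 30.5 CPM at 30% epiboly and at 56.2 and 37.7 CPM at 50% epiboly, with dome below the other 4 libraries (log2 fold change 3.07 ± 0.59, adjusted p = 0.00846, edgeR). The gene ndufs7 encodes an iron-sulfur subunit near the quinone site of complex I, and ndufs6 a zinc-binding subunit. They stood at 6.06 and 11.2 CPM at dome, at 28.4 and 74.1 CPM in replicate A of 50% epiboly and at 44.9 and 35.9 CPM in replicate B (log2 fold changes 2.96 ± 0.60 and 2.84 ± 0.62). The accessory gene ndufa5 went from 16.3 CPM to 72.4 and 43.1 CPM (2.34 ± 0.55), and atp5pf, a part of the stalk that holds ATP synthase still, from 23.96 CPM to 81.1 and 80.8 CPM (2.20 ± 0.50). The other 13 genes called higher were atp5l, atp5mc3b, atp5mf, atp5pb, atp5pd, cox7c, cox8a, ndufa2, ndufa3, ndufa6, ndufa12, ndufb4 and ndufb8, with log2 fold changes of 1.57 to 2.42.

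Some genes had values that pointed down without passing the test. The gene ndufv1, which encodes the subunit that binds NADH, read 127 CPM at dome, 82.1 and 64.0 CPM at 30% epiboly, and 34.2 and 44.9 CPM at 50% epiboly. Its stages did not overlap, and its log2 fold change was -1.28 ± 0.44 (adjusted p = 0.0743, edgeR). The complex II anchor gene sdhdb and the complex I gene ndufa9a had log2 fold changes of -1.05 ± 0.48 and -0.76 ± 0.42. In all, 30 of the 92 genes had CPM values that rose from dome to 30% and from 30% to 50% epiboly with no overlap, where 5.12% of all genes did. Another 5 (atp5meb, ndufa9a, ndufaf5, ndufv1 and sdhdb) fell in the same ordered way, where 25.6% of all genes did.

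The shorter steps gave few or no calls. From 30% to 50% epiboly, 0 of the 92 genes passed 5% FDR in edgeR, as did 0% of all genes, and DESeq2 called 0. At an unadjusted p under 0.05 there were 29 (31.5%), where 5.77% of all genes were. The median log2 fold change was 0.65 beside -0.07 for all genes. Without 50% epiboly replicate A the median was 0.65 beside -0.24 for all genes, and without 50% epiboly replicate B it was 0.68 beside -0.04. From dome to 30% epiboly, 0 of the 92 genes passed in edgeR, where 0.321% of all genes did, with a median of 0.51 beside -0.01. At an unadjusted p under 0.05 there were 14 (15.2%), close to the 13.2% of all genes. DESeq2 called 4 genes higher in that step (sdhaf4, cox7a2l, cox7b and ndufs7), where it called 192 of 6968 genes higher. A fit with the replicate letter as a block called 2 (sdhaf4 and cox7b), with dome under its labeled letter, B. That fit called 191 of all 12150 genes higher and 8 lower. With dome under A, the letter in its cell names, the block fit called 4 (sdhaf4, cox7a2l, ndufs6 and ndufs7). For that second block fit the share of all genes called is not given here. Without 50% epiboly replicate A or B, which share in the estimate of spread, the same step gave more calls, all higher. The share of all genes called is not given for these runs, so they are not read as results about these genes. The 3 stage comparisons share libraries and are not independent of each other.

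The labeled share separated the genes into strongly different kinds. It was computed for a gene in a library as the UMI-weighted mean of the deposited fractions over cells with 3 or more UMIs of that gene, and is given where 30 or more UMIs stood behind it. In 50% epiboly replicate A, 47 of the 100 genes met that minimum. Of these, 3 were below 5% labeled, 15 lay between 5 and 65% and 29 were above 65%, and the median was 68.85%. Over all 2602 genes with a value in that library, the median was 45.1%, 11.6% lay below 5% and 33.7% above 65%. At dome the median of the 32 measured genes was 12.5% beside 5.00% for all 3016 genes. Of the 32, 12 were below 5% (37.5%), where 49.97% of all genes were. The minimum of UMIs favors abundant mRNAs, so these counts describe the better expressed genes. It was applied to each library by itself, so the medians of the 2 libraries cover different genes. For example, atp5pf had 4 UMIs behind the share at dome and 60 in 50% epiboly replicate A, and sdhaf4 0 and 34. In the other direction, ndufv1 had 226 and 12. No change between stages is read from these medians. The class counts can favor genes whose labeled mRNA had raised their total. They also hold only for cells with 3 or more UMIs of a gene. From every pair with a UMI, ndufb8 and cox7c read 59.9 and 43.6% in 50% epiboly replicate A, in place of 78.1 and 62.8%. There uqcr10 read 12.7% in place of 11.0%.

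At one end stood atp5mc1 and ndufa4l, the most abundant genes of the group. The gene atp5mc1 encodes subunit c, the protein of the rotating ring of ATP synthase. Its total level was 1140.2 CPM at dome, 984.5 and 914.7 CPM at 30% epiboly, and 794.7 and 1570.7 CPM at 50% epiboly, with the highest and lowest values in the same stage. Its labeled share was 0.492% at dome, 1.15 and 1.57% at 30% epiboly, and 1.93 and 2.09% at 50% epiboly, beside 0.570 to 0.922% for the injected unlabeled reporters. The gene ndufa4l, related to a subunit first assigned to complex I and now to complex IV, was at 749 CPM at dome, 1315 and 870 CPM at 30% epiboly and 1153 and 675 CPM at 50% epiboly, without an order by stage. Its labeled share was 0.424%, then 2.44 and 1.70%, then 4.385 and 1.13%. Neither gene passed the total test from dome to 50% epiboly (log2 fold changes 0.46 ± 0.40 and 0.75 ± 0.43).

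These 2 genes weighed heavily in the pooled labeled share. Over all members with 50 or more UMIs it was 9.24% at dome (95% Wilson interval 8.91 to 9.59), 23.2% (22.7 to 23.7) and 28.1% (27.4 to 28.9) at 30% epiboly, and 40.4% (39.9 to 40.9) and 34.9% (33.0 to 36.85) at 50% epiboly. These intervals treat UMIs as counted outcomes and cover neither the error of the estimated fractions nor the spread between libraries. The same measure over all genes was 13.6, 38.2, 32.1, 51.2 and 34.9%. Without atp5mc1 and ndufa4l, which gave 35.7 to 50.2% of the UMIs behind it, the share of the group was 16.2, 44.7, 43.7, 60.9 and 56.8%. Both are among the genes of lowest labeled share, so leaving them out could only raise the share of the group. No gene was left out of the value for all genes, so no comparison between these values was drawn. With both genes, the group was below all genes in 4 libraries and level in 50% epiboly replicate B. That order depended on the pairs used: from every pair with a UMI, the group with both genes read 12.6, 29.0, 32.2, 41.1 and 39.8% and all genes 12.3, 31.5, 29.7, 42.6 and 32.4%, so that the group was above in 3 of 5 libraries.

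Several other genes also remained largely unlabeled. The gene ndufab1a encodes mitochondrial acyl carrier protein, a complex I subunit that also serves fatty acid synthesis. It was the most abundant complex I gene (478, 492, 429, 486 and 639 CPM) and was 3.68% labeled at dome and 16.1 and 8.96% at 50% epiboly. The complex I membrane gene ndufc2 (176 CPM at dome, 183 and 250 CPM at 50% epiboly) was 5.09% labeled at dome and 17.5% in replicate A of 50% epiboly. The small complex III gene uqcr10 read 2.43% at dome, 6.22 and 6.82% at 30% epiboly, and 11.0 and 0% at 50% epiboly, where 33 UMIs stood behind the last value, which allows a share of up to 9.09%. For sdhb, the iron-sulfur subunit of complex II, the share was 0.300% at dome, 2.97 and 0% (137 UMIs, which allows up to 2.19%) at 30% epiboly and 14.0% in 50% epiboly replicate A, at total levels of 188, 130, 153, 94.9 and 138 CPM. The anchor gene sdhdb, at 77.0 CPM at dome, was 0% labeled there (63 UMIs, which allows up to 4.76%). These limits treat each UMI as a counted outcome. The shares are means of estimated fractions, whose own error is not covered, so the limits can be too narrow.

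At the other end, the genes of highest labeled share were cox7a2l, cox6a1, cox7b, ndufb8 and cox4i1, named among the 24 genes with 100 or more UMIs behind the share in 50% epiboly replicate A. The share of cox7a2l was 66.2% at dome, 87.1 and 94.8% at 30% epiboly, and 89.1 and 94.4% at 50% epiboly. The shares of cox6a1 were 66.2, 78.3, 86.0, 84.7 and 91.9%, and those of cox7b 61.4, 73.2, 90.7, 83.4 and 89.1%. For both genes the share was 61.4% or more in every library, dome included. For cox4i1, the main form of subunit IV, the share was 43.6% at dome and 70.2 to 77.4% in the later libraries. Among the genes between these ends, the catalytic subunit gene atp5f1b went from 8.49% labeled at dome through 40.4 and 45.3% to 61.2 and 78.1%, and the Rieske protein gene uqcrfs1 from 13.5% through 51.0 and 40.2% to 68.3 and 82.2%.

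**Figure D3:**
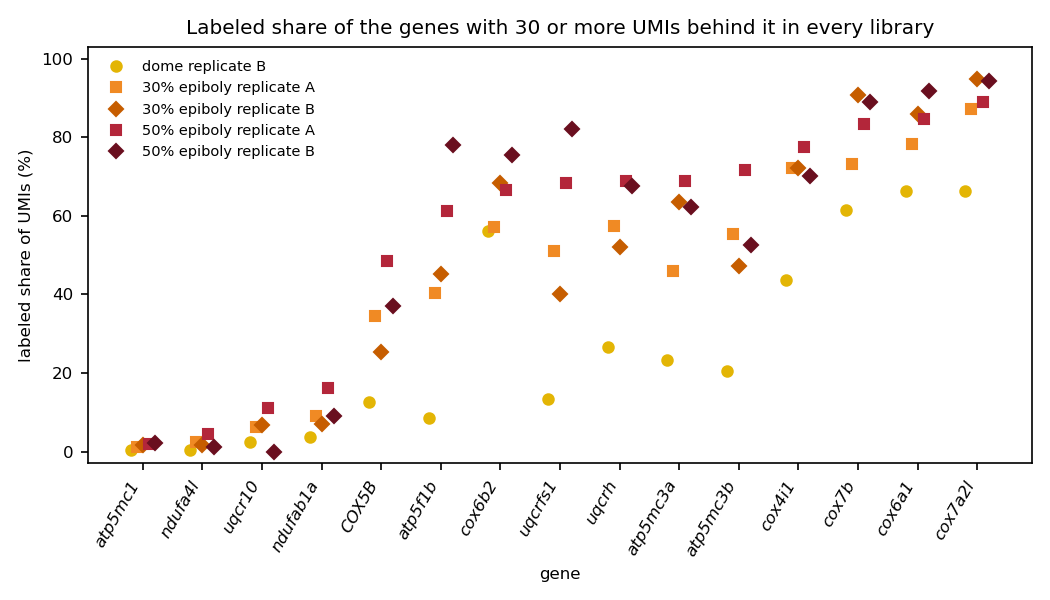
Labeled share of UMIs, in percent, in each of the 5 libraries for the 15 genes with 30 or more UMIs behind it in all of them, ordered by 50% epiboly replicate A. Points are libraries, without error bars. The 4 genes on the left stay at or below 16.1%, and the 4 on the right are at 43.6% or more in every library.

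The labeled and unlabeled components, each the total CPM times the share, were tested with limma on log2(CPM + 1), which shrinks the change of low components. Tested were genes with 30 or more UMIs behind the share in every library of the stages compared. Of the 15 genes that could be tested, 12 were higher in labeled CPM at 50% epiboly than at dome, where 46.0% of the 791 genes tested were called. Labeled values rose for nearly all genes: 93.3% of the 15 and 93.8% of all genes had positive changes. The medians were 2.10 and 1.63. The 3 others were atp5mc1, ndufa4l and uqcr10. For example, labeled uqcrh, the hinge protein of complex III and the most abundant gene of that complex, rose by 2.10 ± 0.46 on that scale (adjusted p = 0.0203, limma), and labeled atp5mc3b by 2.69 ± 0.47. These calls depended on single libraries: there were 0 without 30% epiboly replicate A, 30% epiboly replicate B or 50% epiboly replicate B, and 11, one of them lower (uqcr10), without 50% epiboly replicate A. When pairs with a single UMI or more were used, 33 of 46 tested genes were called higher, and with a minimum of 3 UMIs behind the share 0 were. The share of all genes called in these alternative runs is not given here.

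In unlabeled CPM, 0 of the 15 genes passed limma's test from dome to 50% epiboly, where 0.632% of all genes did. At an unadjusted p under 0.05 there were 2 (13.3%), where 13.15% of all genes were. The lowest values were those of atp5f1b and uqcrfs1, with log2 fold changes of -2.09 ± 0.57 (adjusted p = 0.0981) and -1.70 ± 0.60 (adjusted p = 0.198). With the replicate letter as a block both were called lower (adjusted p = 0.00233 and 0.00637, limma), whereas with dome under the letter A only atp5f1b was (adjusted p = 0.00986). Unlabeled atp5mc1, ndufa4l and ndufab1a had log2 fold changes of -0.05 ± 0.42, 0.20 ± 0.42 and 0.08 ± 0.41, and unlabeled cox6b2 0.74 ± 0.59. From 30% to 50% epiboly, 0 of 15 genes passed in either component and 0% of all genes did. At an unadjusted p under 0.05 there were 1 (unlabeled) and 2 (labeled), where 3.78% of all genes were in each component. A test by a second tool was not run on the components.

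Some related copies of the same subunit differed in labeled share, while others were close. The zebrafish has 3 listed genes for subunit c, and the 2 besides atp5mc1 were mainly labeled by 50% epiboly. The gene atp5mc3a was 23.4% labeled at dome, 46.1 and 63.4% at 30% epiboly and 69.0 and 62.3% at 50% epiboly, at 191 to 262 CPM throughout. Its neighbor in name, atp5mc3b, was 20.5, 55.4, 47.4, 71.8 and 52.6% labeled and rose from 236 CPM at dome to 452 and 591 CPM at 50% epiboly (log2 fold change 1.57 ± 0.41, adjusted p = 0.0283, edgeR). At dome atp5mc1 thus stood at 1140.2 CPM beside 218 and 236 CPM for the other copies. Values of near-identical copies are uncertain, because the sources used here do not say how reads that fit several genes were counted.

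Other copies gave a similar contrast of values. Beside ndufab1a, the copy ndufab1b was at 52.1 CPM at dome and 89.3 and 142 CPM at 50% epiboly, with labeled shares of 12.7% at dome and 54.4% in 50% epiboly replicate A. For subunit Va of complex IV, cox5aa was 72.6% labeled in 50% epiboly replicate A at 134 CPM, while cox5ab had too few UMIs for the share there. From all pairs with at least 1 UMI, cox5aa read 10.6, 34.8, 32.1, 50.8 and 49.0% and cox5ab 7.23, 13.3, 7.89, 20.4 and 13.5%, so cox5aa was higher in all 5 libraries. By the same measure cox7a2l read 55.8 to 84.4%, cox7a2a 35.5 to 75.3% and the copy listed in capitals, COX7A2, 10.1 to 53.7%. The ATPase inhibitory factor gene atp5if1a (84.8 CPM at dome, 165 and 144 CPM at 50% epiboly) read 24.9% at dome and atp5if1b (38.5 CPM, then 25.3 and 41.3 CPM) 6.64%.

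In 4 further pairs 1 copy was clearly the more abundant. The gene ndufa9a held 3575 UMIs and ndufa9b 100, uqcrc2b 1813 and uqcrc2a 284, atp5meb 1939 and atp5mea 468, and sdhdb 1338 and sdhda 44. The pair ndufs8a (562 UMIs) and ndufs8b (310 UMIs) lay closer together. From all pairs with at least 1 UMI, uqcrc2a was 16.4% labeled at dome and 43.9% in 50% epiboly replicate A, and uqcrc2b 7.55 and 38.4%. In the same 2 libraries atp5mea read 1.69 and 12.2% and atp5meb 2.83 and 17.8%, while ndufs8a read 3.92 and 25.5% and ndufs8b 2.66 and 0.839%. In mammals some complex IV subunits have forms typical of heart, muscle or lung, and genes named for these held few UMIs over all cells: 12 for cox4i2, 9 for cox8b, 6 for cox7a1 and 1 for cox6a2. The gene cox6b1, named for the widespread form in mammals, held 9, against 11319 for cox6b2. The gene named ndufa4 held 10, against 27786 for ndufa4l. With sdhaf1 (6) and ndufv2 (18), these were the 8 genes that did not pass the filter for the stage tests.

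**Figure D4:**
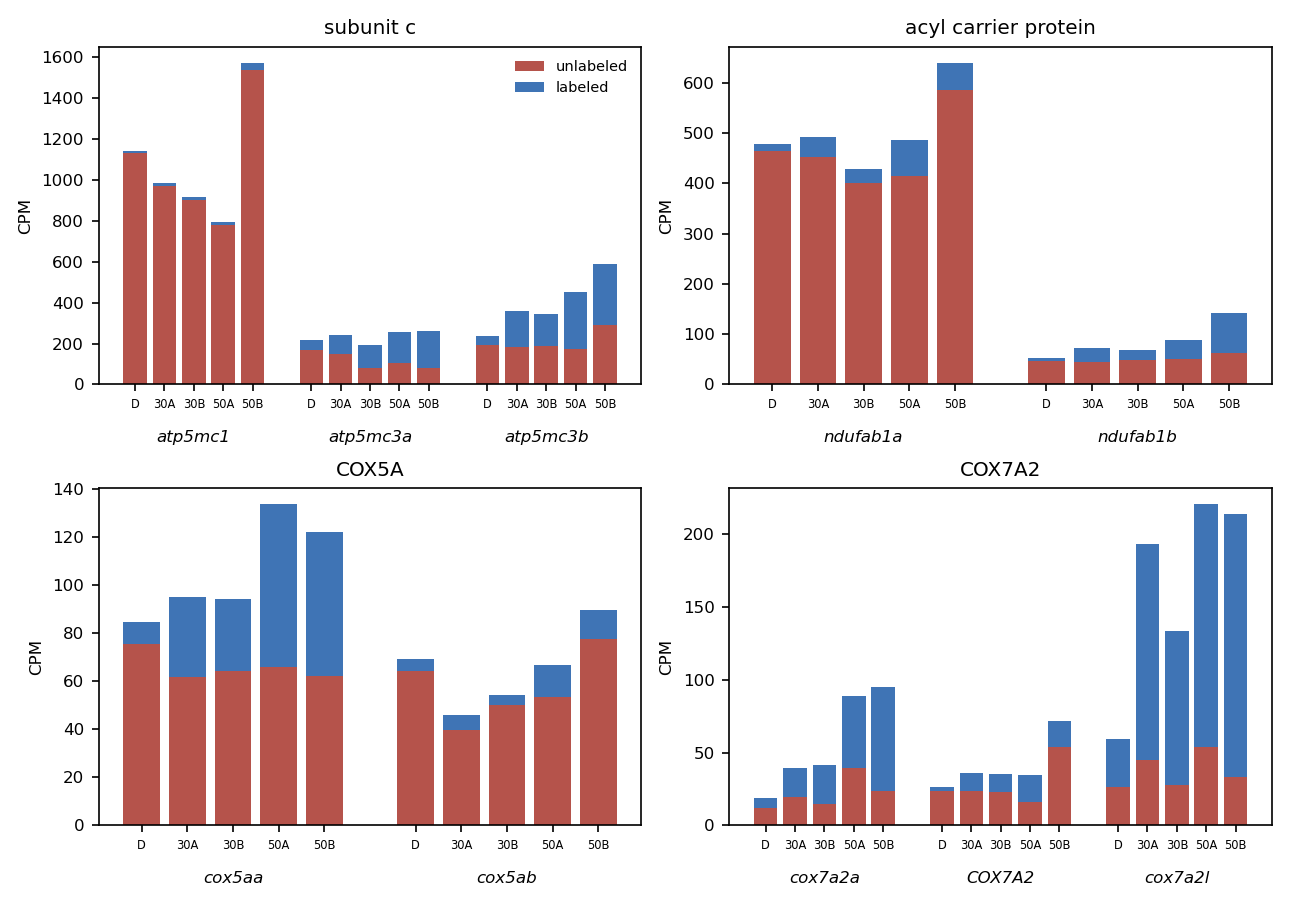
Level in CPM of related gene copies in each of the 5 libraries, with unlabeled (red) and labeled (blue) parts from pairs of 1 or more UMIs. D stands for dome, and 30A to 50B for the epiboly libraries by stage and replicate. The bars of atp5mc1 and ndufab1a have blue parts of 14.6% or less in every library, while those of cox7a2l are mostly blue (55.8 to 84.4%).

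Each cell type annotated by the authors was compared with all other cells of the same library, with the library as a block, where a type had 20 or more cells in at least 3 libraries. The types came from clustering of these same cells on their expression, so the p-values are not independent of how cells were grouped. The ratio of the summed level of the 100 genes in a type to that in the other cells lay between 0.801 and 1.32. This covers every type and library with 20 or more cells of the type. The text below gives that ratio by type. The ratio was above 1 for Neural Ectoderm in 5 of 5 libraries (1.04 to 1.24). For Non Neural Ectoderm (0.9997 to 1.32) and Ventral Margin (0.972 to 1.115) it was above 1 in 4 of 5. It was below 1 in every tested library for EVL (0.801 to 0.949), Dome (0.866 to 0.952) and YSL contam (0.933 to 0.949). The most abundant genes weigh most in this ratio. By gene, the median log2 difference was -0.07 for EVL and -0.16 for YSL contam, beside -0.07 and -0.11 for all genes. For Dome it was -0.43 beside -0.07. With sums of UMIs per type, more mRNA of these genes per cell and less of other mRNA cannot be told apart.

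**Figure D5:**
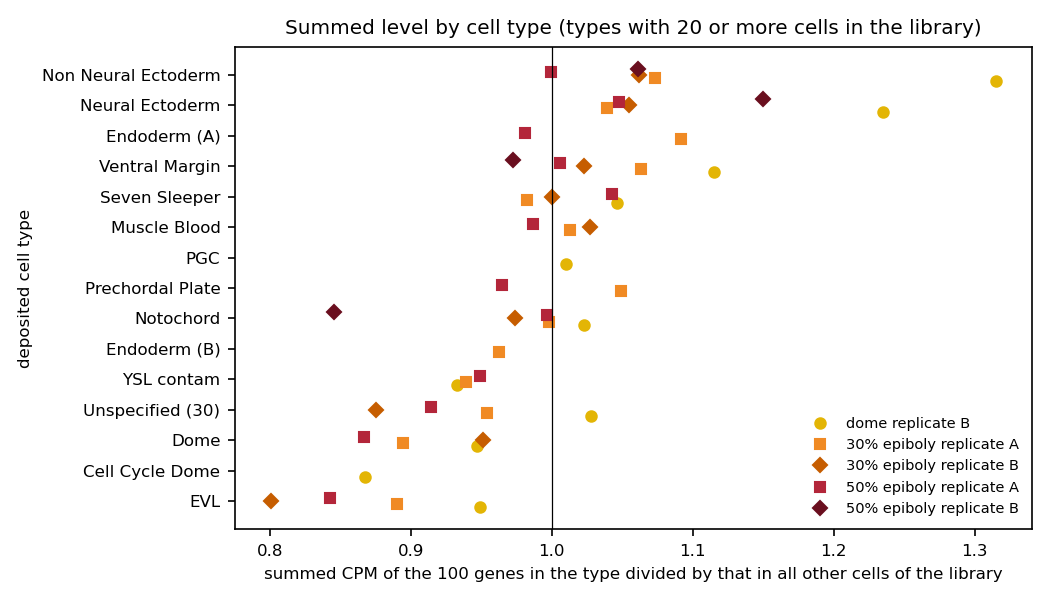
Summed CPM of the 100 genes in a cell type divided by that in all other cells of the same library, for types with 20 or more cells there. Each point is 1 library, and the vertical line marks a ratio of 1. All 5 Neural Ectoderm points lie to the right of the line, as do 4 of 5 for Non Neural Ectoderm and for Ventral Margin. All EVL, Dome and YSL contam points lie to the left.

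In Neural Ectoderm cells, 15 of the 84 genes tested were higher (17.9%) and 1 lower, where 6.79% of all genes were higher and 8.14% lower in edgeR's test. The median log2 difference was 0.19 beside -0.01 for all genes. Of the 15, 9 were complex IV genes, 3 ATP synthase genes (atp5mc3b, atp5pb and atp5if1a), 2 complex I genes (ndufs6 and ndufs7) and 1 a complex III gene (uqcrh), and cox6a1 had the lowest adjusted p. In each library cox6a1 was higher in these cells: 257 against 89.8 CPM at dome, 218 against 149 and 220 against 137 CPM at 30% epiboly, and 284 against 236 and 500 against 269 CPM at 50% epiboly (log2 difference 0.69 ± 0.11, adjusted p = 6.88e-05). The gene cox7a2a was also higher in all 5 libraries (0.77 ± 0.15), as were cox6b2 (0.44 ± 0.09), cox7a2l (0.52 ± 0.12) and cox7c (0.45 ± 0.10). The gene that was lower was ndufv1, in 5 of 5 libraries, with 23.4 against 38.4 CPM in 50% epiboly replicate A (-0.58 ± 0.15).

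Neural Ectoderm cells were also shallower and more labeled than the rest. Their median UMI count was 0.482 to 0.853 times that of the other cells, and the labeled share of the group was higher by 2.30 to 15.8 percentage points, against 2.76 to 18.2 points for all genes. The part of these differences in the result was not tested. Compared only with other specified cells, leaving out the Dome, Unspecified (30), Cell Cycle Dome and YSL contam types and the stress-marked type described further on, 9 genes were higher and 3 lower, and 10 of these 12 calls were among the 16 above. DESeq2 called 11, all among the 16. Without 30% epiboly replicate A 6 genes were called, and without 50% epiboly replicate A 10. The share of all genes called in these runs is not given here, so they show only which calls were kept. The difference of the effect between 30% and 50% epiboly passed 5% FDR for 0 of 84 genes in edgeR, where it passed for 9 of all 7189 genes. At an unadjusted p under 0.05 there were 2 of the 84, and the share of all genes at that p is not given here. This difference was not tested in a second tool.

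Cells of the type named Dome, which are unspecified cells found mostly in the dome library, showed the reverse values. Of 87 genes tested, 17 were lower (19.5%) and 0 higher, where 7.62% of all genes were lower and 1.12% higher. At an unadjusted p under 0.05 there were 35 of the 87 (40.2%), where 17.8% of all genes were. The median was -0.43 beside -0.07. Complex IV held 9 of the 17 and ATP synthase 5. The gene cox7b was at 41.0 CPM in these cells against 75.7 CPM in the other dome cells, at 62.2 against 119 and 76.3 against 162 CPM at 30% epiboly, and at 105 against 239 CPM in 50% epiboly replicate A (log2 difference -1.20 ± 0.22, adjusted p = 1.98e-06, edgeR). The labeled share of the group was 4.88 to 19.1 percentage points lower in this type, beside 5.44 to 17.4 points for all genes. DESeq2 called 11 of the 17 and none higher. Leaving out 30% epiboly replicate A or B left 6 or 8 calls. The share of all genes called in these runs is not given here. For the Unspecified (30) type, edgeR called 0 of 86 genes, where 2.18% of all genes were called. At an unadjusted p under 0.05 there were 24 (27.9%), where 11.3% of all genes were. Without the dome library edgeR called 30, all lower, and the share of all genes in that run is not given here. DESeq2 was not run for that type.

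The enveloping layer is the outer epithelium of the embryo and the first cell layer to separate. Among 84 genes tested in EVL cells, 1 was higher and 1 lower, where 10.6% of all genes were called. The median log2 difference was -0.07, beside -0.07 for all genes. The lower one, atp5mc3b, read 216 CPM in EVL against 237 CPM elsewhere at dome, 215 against 368 and 172 against 350 CPM at 30% epiboly, and 226 against 461 CPM in 50% epiboly replicate A (log2 difference -0.52 ± 0.14, adjusted p = 0.0252, edgeR). Its level in EVL stayed between 172 and 226 CPM, while in the other cells it was 237 CPM at dome and 350 to 461 CPM in the later libraries. The other gene was ndufa4l (0.36 ± 0.09, adjusted p = 0.0151), higher in 3 of 4 libraries. DESeq2 called 0 of these genes. The edgeR count fell to 1 without 30% epiboly replicate A, and to 0 without 30% epiboly replicate B or 50% epiboly replicate A. It was 5 without the dome library. The share of all genes called in these runs is not given here, so they show only which calls were kept. Of the components, 4 genes could be tested. Unlabeled atp5mc1 was lower in EVL (-0.28 ± 0.08, adjusted p = 0.0215, limma), where 15.1% of all genes were called, and it was not called without 30% epiboly replicate A, 30% epiboly replicate B or 50% epiboly replicate A. In labeled CPM, 0 of 4 passed, where 10.7% of all genes did, and 0 had an unadjusted p under 0.05, where 26.0% of all genes had. The labeled share of the group in EVL differed from the rest by -6.15 to 1.69 percentage points, while that of all genes was 3.33 to 9.13 points higher there.

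The other types held few calls each. A stress-marked type of the annotation, in which 4 of 4 fixed markers (isg15, mdm2, phlda3 and sesn3) were higher in each library, had 2 of 83 genes higher, where 3.91% of all genes were called. One was atp5mf, a subunit of the membrane part of ATP synthase, with 34.3 against 13.6 CPM at dome, 115 against 18.2 and 45.6 against 20.9 CPM at 30% epiboly, and 205 against 46.1 CPM in 50% epiboly replicate A. It was higher in 4 of 4 libraries (log2 difference 2.002 ± 0.20, adjusted p = 2.78e-07, edgeR). The other was ndufa5 (1.03 ± 0.17, adjusted p = 0.0002995), higher in 4 of 4 libraries. The summed level of the 100 genes in these cells was 0.983 to 1.05 times that of the others.

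A complex I gene, ndufv3, was called in 3 types, Muscle Blood, Notochord and Ventral Margin. It encodes an accessory subunit beside the NADH site. It was the 1 gene called in Muscle Blood cells (of 84, where 6.34% of all genes were called), with 142 against 50.4 and 29.7 against 33.0 CPM at 30% epiboly and 117 against 61.0 CPM in 50% epiboly replicate A. It was thus higher in 2 of 3 libraries (log2 difference 1.06 ± 0.19, adjusted p = 9.40e-07, edgeR). In Notochord cells it was higher in 5 of 5 libraries (0.62 ± 0.16), and cox6b2 was lower in 5 of 5 (-0.26 ± 0.08), 2 of 75 genes where 5.32% of all genes were called. Leaving out any 1 library left 1 of these 2 calls. In Ventral Margin cells ndufv3 was higher in 4 of 5 libraries (0.58 ± 0.16) and atp5mc3b in 5 of 5 (0.30 ± 0.07), 2 of 80 genes where 4.91% were called. There were 0 calls there without 30% epiboly replicate A and 1 without 30% epiboly replicate B or 50% epiboly replicate A. For the runs with a library left out, in Notochord cells too, the share of all genes called is not given here.

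In YSL contam cells, 1 of 87 genes was called, where 3.65% of all genes were. This was atp5mc1, lower in 3 of 3 libraries, with 904 against 1151 CPM at dome, 589 against 990 CPM in 30% epiboly replicate A and 467 against 799 CPM in 50% epiboly replicate A (log2 difference -0.65 ± 0.13, adjusted p = 8.88e-05, edgeR). In Non Neural Ectoderm cells, 0 of 78 genes passed in edgeR, where 3.12% of all genes did. Without the dome library 1 lower call appeared, and the share of all genes in that run is not given here. At an unadjusted p under 0.05 there were 6 (7.69%), where 11.8% of all genes were. The median log2 difference there was 0.13 beside -0.01 for all genes. DESeq2 was not run for these types. Primordial germ cells (PGC), which keep many maternal mRNAs, had 20 or more cells only at dome. There the labeled share of the group was 3.37% in 26 cells against 9.33% in the other cells, beside 7.52 and 13.7% for all genes.

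Within each library, cells with a later deposited pseudotime had a higher labeled share of these genes. Cells above and below the library's median pseudotime read 12.9 and 6.85% at dome, 25.6 and 21.7% and then 33.8 and 24.4% at 30% epiboly, and 41.6 and 39.7% and then 42.3 and 27.2% at 50% epiboly. The summed level was 8606 against 8167 CPM at dome, 9793 against 9334 and 9098 against 8723 CPM at 30% epiboly, and 11115 against 11094 and 13334 against 10975 CPM at 50% epiboly. It was higher in the later cells of all 5 libraries, by little in 50% epiboly replicate A. The later cells held fewer UMIs, with medians of 1894 to 3315 against 2244 to 5187, and pseudotime was computed from the same expression values. The labeled share of all genes in later and earlier cells is not given here. The paper reports that the zygotic fraction of all mRNA in a cell rose with pseudotime, so the rise is not read as particular to these genes.

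Genes of neighboring parts of the pathway were tested in the same fit. Of 18 tested genes for electron carriers and entry points outside the rule, 2 were higher and 1 lower from dome to 50% epiboly, with a median log2 fold change of -0.02. Cytochrome c itself, as cycsb, rose from 335 CPM at dome through 673 and 570 CPM to 881 and 1212 CPM (2.07 ± 0.41, adjusted p = 0.00939, edgeR) and was 47.4% labeled at dome and 86.1% in replicate A of 50% epiboly. The gene coq7, of ubiquinone synthesis, fell from 30.7 CPM to 5.24 and 5.38 CPM (-2.06 ± 0.57). Of 35 tested assembly factors outside the rule, 4 were higher (atpaf1, cox10, cox20 and sco2) and 0 lower, with a median of 0.21. Of 22 symbols listed for the citric acid cycle, 1 was higher and 0 lower, with a median of -0.06. The 1 called was dld (5.02 ± 0.81), which in zebrafish is the symbol of the Notch ligand deltaD, whereas the enzyme gene dldh had a value of -0.23 ± 0.44. Among 12 tested regulators of mitochondrial genes, yy1a and mycb were higher (1.63 ± 0.42 and 2.31 ± 0.63) and 0 were lower, with a median of 0.41. These shares stand beside the 5.69% of all genes called higher and 2.26% called lower in that comparison.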

How the data were processed

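The authors deposited a table of UMI counts per gene and cell, a table of the fraction of labeled mRNA per gene and cell, and a cell table with type, pseudotime score and other columns, of which 8 were not used. According to the paper's methods, reads were processed with Drop-seq tools and the deposited labeled fraction was estimated with GRAND-SLAM. The submitters' processing notes name Bowtie2, SAMtools and GRCz11. The methods name an earlier Ensembl build for the counts and GRCz11 for the labeled fractions. Clusters and the pseudotime score were deposited as the authors computed them with URD. Libraries that were not converted were not analysed here. Injected RNAs, 0.534% of UMIs, were left out of totals. Of the 100 genes, 99 IDs matched the name table.

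The members and lists were chosen with earlier results of these data known. UMI counts were summed per library (or per type and library) and tested with edgeR 4.0.16 (TMM, filterByExpr, quasi-likelihood), with stage as the only term, or type with library as a block. Components were tested with limma 3.58.1 on log2(CPM + 1). DESeq2 1.42.0 (R 4.3.3), other filters, pseudocounts and left-out libraries were alternatives, and some of these (Neural Ectoderm against specified cells, DESeq2 for 2 types, the stage interaction, and the block with dome under A) were chosen after seeing the data. Labeled fractions used pairs of 3 or more UMIs, except where pairs of 1 or more UMIs or of exactly 3 UMIs are named. UMIs from 3′ ends count molecules, so CPM was not scaled by length. How doublets were treated upstream is not stated, and none were called. The tests were tried on simulated data.

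Replicate letters are shared by 30% and 50% epiboly, where the methods tie a replicate to a way of dissociation. The differences between A and B at the 2 stages correlated at r = 0.16 over 12150 genes, and there are only 2 pairs, so the fits with a replicate block are alternatives. The dome library is labeled B and entered the block fits as B, while its cell names carry an A and the methods place its collection in the first replicate. By way of dissociation, dome goes with the second epiboly replicate, since the methods describe shaking for both and manual removal for the first. The labels do not tie the letters to a way of dissociation. Block fits with dome as A were added.

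Named are the 2 most abundant genes per complex, called genes (at most 10 by adjusted p in each direction), the 5 highest and 5 lowest in labeled share, and copies alike in name. Genes named outside that rule were chosen after their values were seen.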

Additional observations from a re-analysis of the deposited data

How the results depend on the processing

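From dome to 50% epiboly, 13 of the 23 genes called in total level kept the call in every alternative run, and no called gene changed direction in any comparison. The number of calls there ranged from 17 to 46 when 1 library was left out, and from 0 to 4 for 30% to 50% epiboly. With a replicate block the counts were 24 (22 of the 23 genes, without ndufb4 and with ndufab1b and ndufb9) and 0. With dome under A in that block the first was 30, the 23 included. For dome to 30% epiboly, where 0 genes were called, DESeq2 gave 4, no filter on low counts 2, the replicate block 2 (4 with dome under A), leaving out YSL contam and stress-marked cells 4, and leaving out 1 library 0 to 11. Labeled calls from dome to 50% epiboly were 0 to 11 with 1 library left out, 33 with pairs of 1 or more UMIs, 0 with 3 UMIs behind the share and 13 with the replicate block under either letter for dome. Unlabeled calls became 1 with pairs of 1 or more UMIs and 2 with the replicate block (1 with dome under A). In EVL, DESeq2 gave 0 total calls and leaving out 1 library 0 to 5. With 3 UMIs behind the share, unlabeled calls there fell to 0 and labeled calls rose to 1, and unlabeled calls were 0 to 1 with 1 library left out. Calls with 1 library left out were 6 to 22 for Neural Ectoderm, 6 to 21 for Dome (11 with DESeq2), 0 to 1 for Non Neural Ectoderm, 1 to 1 for Notochord, 0 to 30 for Unspecified (30) and 0 to 3 for Ventral Margin. The number of all genes called moved between these runs too, for example to 1531 lower without TMM scaling from dome to 50% epiboly, beside 275 in the main fit. It is not given beside most of these counts. The causes were not tested.

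The pooled labeled share depended on the pairs used. From pairs of 1 or more UMIs it was 12.6% at dome, 29.0 and 32.2% at 30% epiboly and 41.1 and 39.8% at 50% epiboly, and from pairs of exactly 3 UMIs 13.9, 34.4, 37.8, 48.6 and 44.6%. Without YSL contam and stress-marked cells it moved beyond its interval in 30% epiboly replicate B (29.2%). Shallow counts limit 50% epiboly replicate B, where 15 of the 100 genes had a labeled share.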
